A study of Mus musculus with 12 samples.

Results

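The enzymes described here, encoded by Hyal1, Hyal2, Sgsh and Hgsnat, degrade the glycosaminoglycans hyaluronan and heparan sulfate. They were taken by gene name and are 4 of the 9338 genes that the deposited expression tables list. The study picked these genes from the same libraries, as genes that differed both after loss of TET2 and on a high-fat diet (HFD), so their directions in those comparisons are not independent evidence. RNA was sequenced from lung cells of 12 male C57Bl/6J mice in 4 groups of 3. All mice carried loxP-flanked Tet2 alleles (TET2fl/fl) and received tamoxifen at 40 mg/kg on 3 days, at an age of 6 to 8 weeks. TET2 KO mice also carried Cdh5-CreERT2, a recombinase that tamoxifen activates and that the promoter of the endothelial cadherin gene drives, while wild-type (WT) mice lacked it. Mice of either genotype ate chow, in which fat supplied 13% of the energy, or HFD, in which it supplied 60%, for 20 weeks, and the groups are called WT chow, TET2 KO chow, WT HFD and TET2 KO HFD. The mice were 30 weeks old at collection. Cells were selected with beads against CD31, an adhesion molecule of endothelial cells that some blood cells also carry, so the preparations were enriched for endothelial cells rather than pure.

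Hyaluronan is a long unsulfated sugar polymer, and heparan sulfate is a sulfated chain carried on proteoglycan core proteins. Together they form much of the glycocalyx, the sugar coat on the luminal face of blood vessels, which acts as a barrier and a binding surface for plasma proteins and leukocytes. HYAL2 is anchored at the cell surface and cuts long hyaluronan into shorter pieces, and HYAL1 cuts those pieces further in the lysosome. SGSH removes the sulfate group from the nitrogen of the terminal glucosamine of heparan sulfate, and HGSNAT, in the lysosomal membrane, then acetylates the exposed amino group so that the next enzyme can act. Inherited loss of SGSH or of HGSNAT causes forms of Sanfilippo syndrome, in which heparan sulfate accumulates in lysosomes.

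The libraries held 36.7 to 56.8 M reads on genes, and the deepest library was followed by 1 at 43.8 M reads. Tet2 itself was at 4.73 to 5.18 FPKM (the read count divided by the gene's length and the library's total) in WT chow mice and at 6.07 to 6.71 FPKM in WT HFD mice. Neither comparison of TET2 KO with WT lists it, so Tet2 RNA did not pass an unadjusted p under 0.05 in the authors' DESeq2 test there. Its values in TET2 KO mice are not given, and the deletion could not be checked here. The study reported Cre recombination of the Tet2 gene in CD31+ lung cells by PCR. Among the defining endothelial markers, Pecam1, which encodes CD31, was at 36.0 to 146 FPKM in the WT libraries. Markers of other cells were also high, since Lyz2, of monocytes and macrophages, was at 1948 to 5381 FPKM in the 6 TET2 KO libraries, and Scgb1a1, of airway secretory cells, was at 1991 to 5481 FPKM in the WT libraries.

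Hyal2 (ENSMUSG00000010047) and Hyal1 (ENSMUSG00000010051) are neighbours on the plus strand of chromosome 9, and 4147 bases lie between them. On mm10 Hyal2 spans chr9:107567945-107572779 and Hyal1 spans chr9:107576927-107581710. Sgsh (ENSMUSG00000005043) lies at chr11:119343425-119355536 and Hgsnat (ENSMUSG00000037260) at chr8:25944453-25976753, both on the minus strand. In the GENCODE annotation, release M21, 51.9% of the exonic bases of Hyal1 are also exonic in same-strand neighbours, 50.8% in Naa80 and 4.21% in Hyal3. Of the exonic bases of Sgsh, 21.6% are shared with Card14 on the opposite strand. Reads on shared bases could have been assigned to either gene or dropped, so the counts of Hyal1 are uncertain, and so are those of Sgsh if counting ignored the strand. Hyal2 and Hgsnat share no exonic base with another annotated gene.

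The promoter windows of Hyal2 and Hyal1 are printed because these genes varied together from library to library, and that of Sgsh because it holds a motif searched. They come from RefSeq on GRCm38.p6, run from 250 bases before to 50 bases after the start of transcription, and are written 5′ to 3′ on the strand of the gene. Hgsnat has no entry in the table used.
Hyal2 (chr9:107568913-107569212, plus strand): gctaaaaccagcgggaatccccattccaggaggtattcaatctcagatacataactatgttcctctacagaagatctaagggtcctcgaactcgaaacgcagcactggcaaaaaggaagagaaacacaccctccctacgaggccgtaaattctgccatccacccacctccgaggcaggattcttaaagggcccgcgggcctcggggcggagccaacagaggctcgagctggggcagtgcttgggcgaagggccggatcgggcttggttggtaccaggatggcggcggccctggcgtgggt
Hyal1 (chr9:107576700-107576999, plus strand): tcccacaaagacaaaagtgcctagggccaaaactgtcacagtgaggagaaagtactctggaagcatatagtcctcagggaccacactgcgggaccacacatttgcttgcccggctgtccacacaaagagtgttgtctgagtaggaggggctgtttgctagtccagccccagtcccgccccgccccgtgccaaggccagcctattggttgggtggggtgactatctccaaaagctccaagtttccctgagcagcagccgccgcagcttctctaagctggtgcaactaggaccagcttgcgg
Sgsh (chr11:119355461-119355760, minus strand): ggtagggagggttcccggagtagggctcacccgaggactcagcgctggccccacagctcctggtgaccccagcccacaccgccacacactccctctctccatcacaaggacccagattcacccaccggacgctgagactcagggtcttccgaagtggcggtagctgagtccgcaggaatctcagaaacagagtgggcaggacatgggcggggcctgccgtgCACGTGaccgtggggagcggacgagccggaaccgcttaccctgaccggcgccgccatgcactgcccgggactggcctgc
Capitals mark CACGTG, the E-box core found in many lysosomal gene promoters, which occurs once in the Sgsh window and begins 29 bases before the start. It occurs in neither hyaluronidase window, and 7.15% of the 32851 mouse windows of this length hold it. The gamma-activated site TTCNNNGAA, held by 8.30% of all windows, and the core of the interferon-stimulated response element, held by 3.44%, were searched on both strands and matched in none of these windows. The Hyal2 window holds 18 CpG sites, the Hyal1 window 8 and the Sgsh window 21, against a median of 7 over all windows. The Hyal2 window lies inside the span that the tables give for Hyal2, since RefSeq places the start further downstream.

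All 4 enzymes had their highest group mean in WT HFD and their lowest in WT chow, with both TET2 KO groups between. Hyal2, the surface hyaluronidase, was at 6.17, 7.64 and 13.0 FPKM in WT chow mice and at 24.5, 11.5 and 11.1 FPKM in TET2 KO chow mice. It was at 33.4, 19.0 and 18.2 FPKM in WT HFD mice and at 18.1, 9.59 and 8.31 FPKM in TET2 KO HFD mice. WT HFD lay above WT chow in every library and above TET2 KO HFD in every library, though only just (18.2 against 18.1 FPKM), whereas 1 library of TET2 KO chow stood far above the other two of its group. Of the genes listed for HFD against chow in WT 86.5% did not overlap, and of those for TET2 KO against WT on HFD 75.5%.

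Hyal1, the lysosomal hyaluronidase, was at 1.26, 1.36 and 2.31 FPKM in WT chow mice and at 3.30, 2.46 and 2.21 FPKM in TET2 KO chow mice. It was at 4.93, 2.89 and 2.73 FPKM in WT HFD mice and at 3.19, 1.65 and 1.61 FPKM in TET2 KO HFD mice. The WT HFD libraries were again above all WT chow libraries, and 86.5% of the genes listed for that comparison did not overlap. The TET2 KO libraries of either diet overlapped the WT libraries of that diet.

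Sgsh, the sulfohydrolase, was at 3.51, 2.53 and 3.45 FPKM in WT chow mice and at 4.43, 3.92 and 5.25 FPKM in TET2 KO chow mice. It was at 6.92, 6.96 and 6.29 FPKM in WT HFD mice and at 3.73, 4.20 and 6.09 FPKM in TET2 KO HFD mice. Among the 4 enzymes Sgsh alone had no overlap between WT chow and TET2 KO chow, between WT chow and WT HFD, or between WT HFD and TET2 KO HFD. For each of these pairs by itself most listed genes did not overlap, at 74.7%, 86.5% and 75.5% in that order.

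Hgsnat, the acetyltransferase, was at 10.4, 12.5 and 12.5 FPKM in WT chow mice and at 14.7, 14.8 and 14.8 FPKM in TET2 KO chow mice. It was at 16.0, 15.6 and 34.1 FPKM in WT HFD mice and at 9.27, 15.8 and 15.0 FPKM in TET2 KO HFD mice. The WT HFD mean of 21.9 ± 10.6 FPKM (SD, n = 3) rests on replicate 3, and the TET2 KO chow libraries, at 14.8 ± 0.0514 FPKM (SD, n = 3), were nearly equal.

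**Figure D1:**
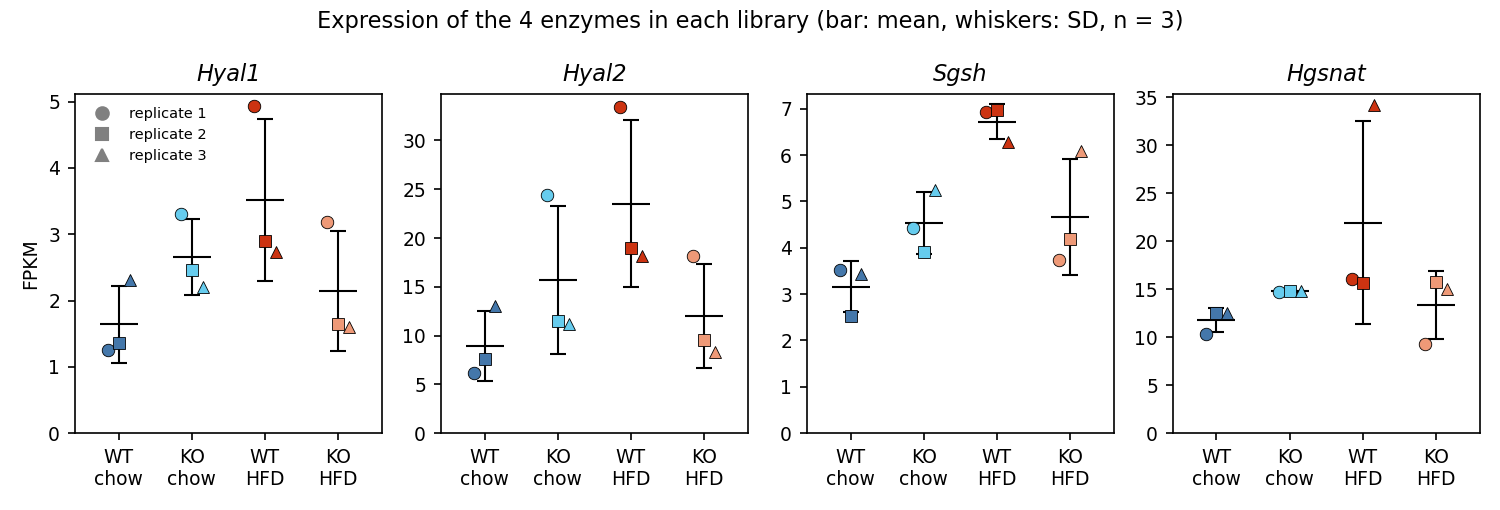
Expression of Hyal1, Hyal2, Sgsh and Hgsnat in FPKM (vertical axes, each from 0) in the 12 libraries, by group along the horizontal axes; symbols give the replicate number, and the bar and whiskers give the mean and SD of 3 libraries. WT HFD has the highest mean in each panel, and Hgsnat in WT HFD replicate 3, at 34.1 FPKM, stands apart from its group.

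In the order of group means, the neighbours WT HFD and TET2 KO HFD for Sgsh (6.73 ± 0.376 against 4.67 ± 1.25 FPKM, SD, n = 3) and WT HFD and TET2 KO chow for Hgsnat did not overlap, nor did TET2 KO chow and WT chow for Sgsh (4.53 ± 0.671 against 3.16 ± 0.550 FPKM). All other neighbours in the order overlapped in at least 1 library. Most listed genes did not overlap either, at 75.5% for TET2 KO against WT on HFD and 74.7% on chow. No such share was taken for WT HFD against TET2 KO chow. Between genes, on the FPKM scale, Hyal2 was 4.68 to 7.41 times as high as Hyal1 in every library. Read counts ran from 189 to 1057 for Hyal1, from 890 to 6248 for Hyal2, from 410 to 1735 for Sgsh and from 1284 to 4423 for Hgsnat. In bulk RNA, fewer cells of a type and less RNA per cell cannot be told apart.

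Loss of TET2 on chow was compared first, in 3 mice against 3. Hyal1, Sgsh and Hgsnat were higher in TET2 KO chow than in WT chow at an unadjusted p under 0.05 in edgeR's quasi-likelihood test, the call used throughout, so 3 of the 4 enzymes rose. The log2 fold change was 0.69 for Hyal1 (SE 0.28, 95% interval 0.03 to 1.36), 0.51 for Sgsh (SE 0.20, 0.06 to 0.97) and 0.32 for Hgsnat (SE 0.13, 0.02 to 0.62). Hyal2 had the largest difference, 0.82 (SE 0.39, 95% interval -0.09 to 1.73), and did not pass. Of the 1298 genes listed in this comparison 30.6% were higher in TET2 KO by the same call, and the median log2 fold change was 0.60 over the 4 enzymes and -0.37 over all of them. Each table lists only genes past an unadjusted p under 0.05 in the authors' own test, so most listed genes pass here too. No library overlapped between the groups for Sgsh and Hgsnat, as for 74.7% of the listed genes.

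Adjusted over the listed genes by Benjamini-Hochberg, the edgeR value was 0.0625 for Sgsh, 0.0631 for Hgsnat, 0.0636 for Hyal1 and 0.0749 for Hyal2, and over all annotated genes it was 1 for each. Without replicate 1 of TET2 KO chow no enzyme passed and the log2 fold change of Hyal2 went from 0.82 to 0.34, and without replicate 2 of WT chow none passed. The Hyal1 call was lost in 4 of the 6 omissions, with TET2 KO chow 1 (0.50), TET2 KO chow 2 (0.75), WT chow 1 (0.54) or WT chow 2 (0.57) left out. That of Sgsh was lost in 3, with TET2 KO chow 1 (0.53), TET2 KO chow 3 (0.39) or WT chow 2 (0.37) left out, and that of Hgsnat in all 6 (0.25 to 0.36). Hyal2 passed with TET2 KO chow 3 (1.01) or WT chow 3 (1.18) left out. None of the 10 endothelial markers is listed in this comparison. Of 10 T cell markers 7 are listed and 6 rose, with a summed level of 135 to 185 FPKM in TET2 KO chow and 78.9 to 129 FPKM in WT chow. Both listed natural killer cell markers, Nkg7 (0.74, SE 0.23) and Prf1 (0.81, SE 0.34), also rose, as did the only listed monocyte and macrophage marker, Ccr2 (1.01, SE 0.20). All 3 listed markers of lung epithelium and all 4 of fibroblasts and smooth muscle fell, and the part of other cell types in these differences was not tested.

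HFD was then compared with chow in WT mice. All 4 enzymes were higher in WT HFD, with log2 fold changes of 1.40 for Hyal2 (SE 0.35, 95% interval 0.58 to 2.22), 1.11 for Hyal1 (SE 0.33, 0.33 to 1.88), 1.09 for Sgsh (SE 0.16, 0.72 to 1.47) and 0.90 for Hgsnat (SE 0.31, 0.17 to 1.64), and all 4 passed. In mean FPKM, Hyal2 was 2.63 times, Hyal1 2.14 times, Sgsh 2.13 times and Hgsnat 1.86 times as high as in WT chow. Of the 7330 genes listed, 42.4% were higher on HFD by the same call. The median log2 fold change was 1.10 over the enzymes and -0.32 over all listed genes. The groups did not overlap for any of the 4 enzymes, as for 86.5% of the listed genes. This comparison and the preceding one share the WT chow libraries, so their values are not independent of each other.

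The edgeR p adjusted by Benjamini-Hochberg over the listed genes was 0.0110 for Sgsh, 0.0183 for Hyal2, 0.0248 for Hyal1 and 0.0348 for Hgsnat. Over all annotated genes, which counts every unlisted gene as tested, it was 0.0834, 0.138, 0.188 and 0.264, while DESeq2 called Sgsh, Hyal2 and Hyal1 at that threshold. The Hgsnat difference fell from 0.90 to 0.43 without WT HFD replicate 3, which kept the call, and its call was lost without WT chow replicate 1, at 0.82.

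All 10 endothelial markers are listed in this comparison and 9 rose, with a median log2 fold change of 1.47. Their summed level was 801 to 1415 FPKM in WT HFD and 264 to 750 FPKM in WT chow. All 7 natural killer cell markers also rose, from a sum of 33.2 to 58.9 FPKM to 101 to 168 FPKM. Of 16 monocyte and macrophage markers 7 are listed, of which 3 rose and 4 fell. Their sum was 985 to 1746 FPKM in WT HFD and 1706 to 3134 FPKM in WT chow. Most of it was Chil3, at 756 to 1370 FPKM in WT HFD and 1489 to 2802 FPKM in WT chow. Ccr2 rose by 1.38 (SE 0.23), Csf1r by 1.21 (SE 0.24) and Ly6c2 by 0.87 (SE 0.21), while Chil3, Marco, Mrc1 and Siglecf fell. The sum therefore does not describe the list as a whole. Of 12 lung epithelial markers 6 are listed, of which 2 rose and 2 fell. Those that rose were Ager, by 1.34 (SE 0.29), and Hopx, by 1.18 (SE 0.26). Those that fell were Epcam, at -0.70 (SE 0.22), and Scgb3a2, at -0.64 (SE 0.27). All 3 listed T cell markers also rose. The part of these cell types in the enzyme differences was not tested.

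On HFD, loss of TET2 was compared in 3 mice against 3, and all 4 enzymes had lower values in TET2 KO. Hyal2 fell by 0.96 on the log2 scale (SE 0.36, 95% interval -1.81 to -0.12) and Sgsh fell by 0.52 (SE 0.20, -0.99 to -0.06), so 2 of the 4 enzymes passed. Hyal1 at -0.70 (SE 0.35, 95% interval -1.51 to 0.10) and Hgsnat at -0.71 (SE 0.35, 95% interval -1.53 to 0.10) did not pass. In mean FPKM the TET2 KO level was 0.510 times that of WT for Hyal2, 0.611 times for Hyal1, 0.695 times for Sgsh and 0.608 times for Hgsnat. Of the 3939 genes listed 39.1% were lower in TET2 KO by this call, and the median log2 fold change was -0.71 over the enzymes and 0.33 over all listed genes. Hyal2 and Sgsh did not overlap between the groups, as for 75.5% of the listed genes. The WT HFD libraries are shared with the diet comparison in WT.

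Adjusted by Benjamini-Hochberg over the listed genes, the edgeR value was 0.0543 for Hyal2, 0.0548 for Sgsh, 0.0795 for Hgsnat and 0.0800 for Hyal1, while DESeq2 called Hyal2 and Sgsh at that threshold. The Hyal2 call was lost with TET2 KO HFD 2 (-0.82), TET2 KO HFD 3 (-0.75) or WT HFD 1 (-0.63) left out, and the Sgsh call with TET2 KO HFD 1 (-0.39), TET2 KO HFD 2 (-0.45), WT HFD 1 (-0.50) or WT HFD 2 (-0.50) left out. Hyal1 passed with TET2 KO HFD 1 left out (-1.11) and Hgsnat with WT HFD 1 left out (-0.90). Hgsnat went from -0.71 to -0.24 without WT HFD replicate 3. Endothelial markers moved in the same direction, with 8 of 10 listed and 7 lower, a median log2 fold change of -1.02, and a summed level of 403 to 739 FPKM in TET2 KO HFD against 768 to 1356 FPKM in WT HFD. Of 5 markers of lymphatic and sinusoidal endothelium 4 are listed and 3 fell. Of 12 lung epithelial markers 2 are listed and both fell, Ager at -1.06 (SE 0.30) and Hopx at -0.73 (SE 0.23). Of 16 monocyte and macrophage markers 4 are listed and 3 fell, namely Ccr2, C1qb and C1qc. In WT HFD replicate 3 C1qb was at 249 FPKM and C1qc at 129 FPKM. In the other WT HFD libraries they were at 5.34 and 19.5 FPKM and at 2.46 and 8.59 FPKM. The part of these cells in the enzyme differences was not tested.

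**Figure D2:**
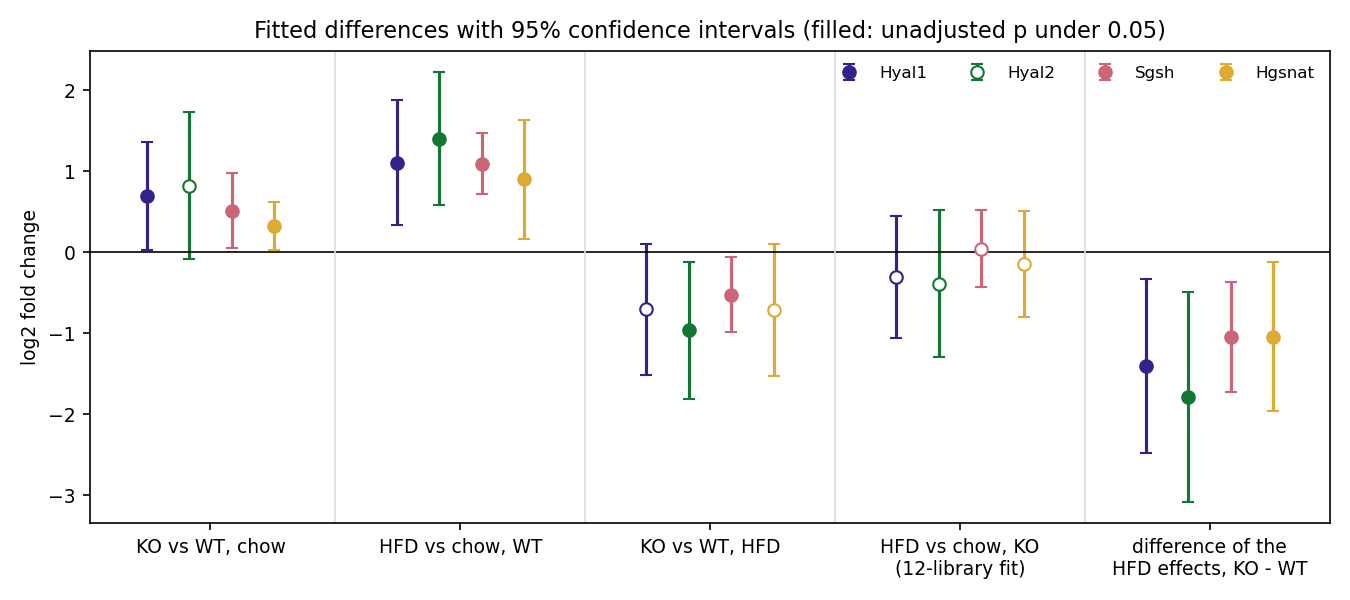
Log2 fold changes (vertical axis) of the 4 enzymes in each comparison and the difference between the HFD effects of the genotypes, fitted with edgeR; whiskers give 95% confidence intervals and filled symbols an unadjusted p under 0.05. All 4 are filled and above 0 for HFD in WT and filled and below 0 for the difference of the HFD effects. None is filled for HFD in TET2 KO, a comparison that lists none of them.

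None of the 4 enzymes is among the 1628 genes listed for HFD against chow in TET2 KO mice. Since other tables give their counts in all 12 libraries, this contrast was taken from a fit to the 975 genes with values in every library, which was added after the data were seen. The log2 fold change was -0.31 for Hyal1 (95% interval -1.06 to 0.45), -0.39 for Hyal2 (-1.30 to 0.52), 0.04 for Sgsh (-0.43 to 0.52) and -0.15 for Hgsnat (-0.80 to 0.51). None passed an unadjusted p under 0.05 in edgeR. This was largely fixed in advance, because the comparison lists only genes past the authors' own p under 0.05 and none of the 4. Of the fitted genes 52.8% passed, with 188 higher and 327 lower. Fitted genes can have their values through that listing, so this share is no measure for the enzymes. With scaling factors from these genes (TMM) the split was 211 higher and 238 lower. The intervals of all 4 enzymes span 0, so no direction can be given.

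The difference between the HFD effects in TET2 KO and in WT was then tested as an interaction over all 12 libraries. It was negative for all 4 enzymes, at -1.79 for Hyal2 (SE 0.59, 95% interval -3.08 to -0.49), -1.41 for Hyal1 (SE 0.49, -2.48 to -0.33), -1.04 for Sgsh (SE 0.31, -1.72 to -0.36) and -1.04 for Hgsnat (SE 0.42, -1.97 to -0.12), and all 4 passed. Of the 975 genes fitted 28.6% had a negative interaction by this call. By Benjamini-Hochberg over these genes Sgsh (0.0185), Hyal2 (0.0236) and Hyal1 (0.0290) passed 0.05 in edgeR and Hgsnat (0.0548) did not, though it did in DESeq2, against 28% of the genes that passed with a negative sign. The median was -1.22 over the enzymes and 0.05 over all genes fitted. The genes fitted are those that several tables list. The enzymes were chosen for their direction in the chow and WT comparisons, and each of these choices pushes the interaction below 0. Its sign, p-values and adjusted values are therefore not independent evidence of a difference between the genotypes. Hyal1, Hyal2 and Sgsh passed the unadjusted threshold with any 1 library left out. Hgsnat did not pass without WT HFD replicate 3 (-0.57), WT chow replicate 1 (-0.96) or TET2 KO HFD replicate 1 (-0.84).

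The hyaluronidase pair varied together across the libraries. Pearson's r of log2(FPKM + 0.1) between Hyal1 and Hyal2 was 0.976 over the 12 libraries, and 0.954 for the deviations of the libraries from their group means. Both were highest in replicate 1 of TET2 KO chow, WT HFD and TET2 KO HFD, and in replicate 3 of WT chow. For Sgsh and Hgsnat r was 0.587 over the 12 libraries and 0.05 for the deviations, and for Hyal2 and Sgsh it was 0.549 and -0.25. These are descriptions, and the points share library preparation and depth.

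Hyal1 and Hyal2 also followed the summed level of 8 endothelial markers (Cdh5, Cldn5, Egfl7, Emcn, Eng, Pecam1, Tek and Tie1) in the 9 libraries outside TET2 KO chow. The sum was 291, 246 and 713 FPKM in WT chow, 1356, 1075 and 768 FPKM in WT HFD, and 739, 403 and 456 FPKM in TET2 KO HFD. Pearson's r of the log2 levels over these 9 libraries was 0.949 for Hyal1, 0.947 for Hyal2, 0.730 for Sgsh and 0.319 for Hgsnat. Only markers with values in all 9 libraries were summed, so each was listed for a difference between these groups. The enzymes were also chosen for a difference on HFD in WT, so these r and the ratios to the markers follow in part from selection. They were not compared with those of other listed genes. Per 1000 FPKM of these markers, Hyal2 was at 23.5 ± 6.71 FPKM in WT chow, 22.0 ± 3.77 FPKM in WT HFD and 22.2 ± 3.45 FPKM in TET2 KO HFD (SD, n = 3 each). Hyal1 was at 4.36 ± 1.15, 3.29 ± 0.525 and 3.98 ± 0.410 FPKM on that scale (SD, n = 3 each). Sgsh was at 9.06 ± 3.77, 6.59 ± 1.55 and 9.61 ± 4.22 FPKM, and Hgsnat at 34.7 ± 16.7, 23.6 ± 18.1 and 28.2 ± 13.9 FPKM (SD, n = 3 each). On this scale the libraries of each pair of groups overlapped for all 4 genes. Emcn, the only endothelial marker with a value in all 12 libraries, was at 1.96 to 2.67 FPKM in TET2 KO chow and 2.14 to 2.67 FPKM in WT chow.

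**Figure D3:**
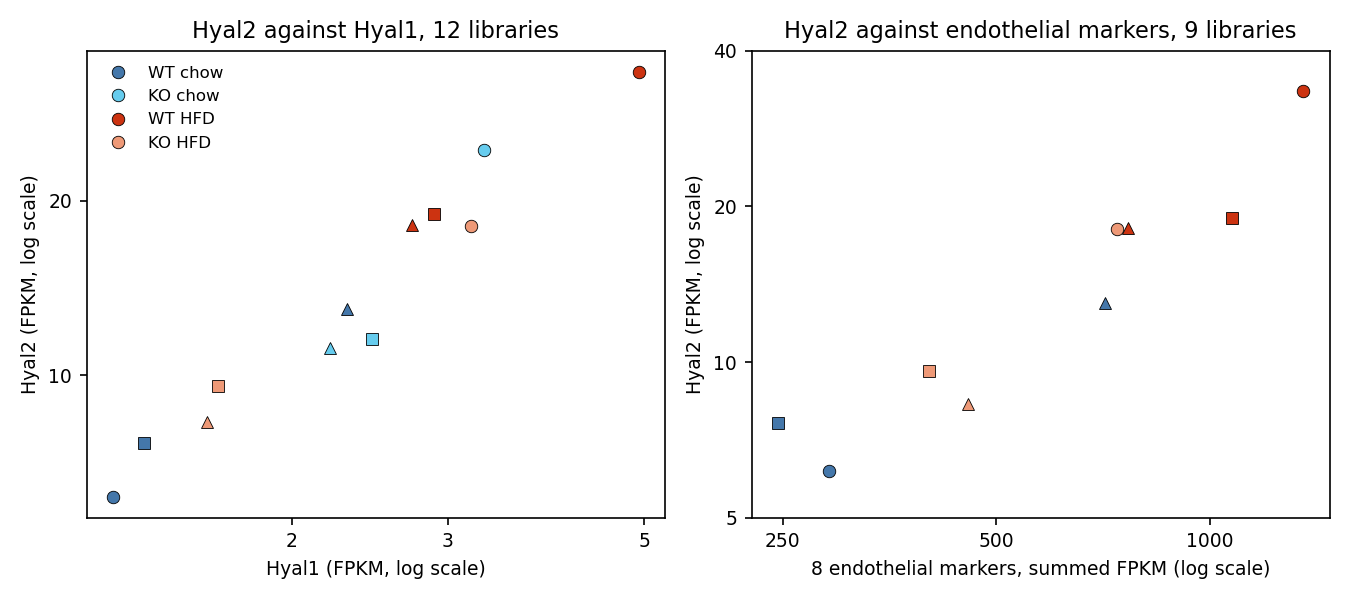
Left, Hyal2 against Hyal1 in FPKM in the 12 libraries; right, Hyal2 against the summed FPKM of 8 endothelial markers in the 9 libraries of WT chow, WT HFD and TET2 KO HFD. All axes are log scales, colours give the group and symbols the replicate number (circle 1, square 2, triangle 3), and the points rise together in both panels, with r of 0.976 and 0.947.

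Hgsnat stood apart in WT HFD replicate 3, and so did some markers of macrophages. The complement genes C1qa, C1qb and C1qc, which macrophages express, summed to 544 FPKM in this library, against 48.9 and 12.4 FPKM in WT HFD replicates 1 and 2 and 18.8 to 34.9 FPKM in TET2 KO HFD. In the same library Naglu, which acts on heparan sulfate after Hgsnat, was at 20.6 FPKM, against 10.5 and 12.2 FPKM in the other WT HFD libraries, and Csf1r, of monocytes and macrophages, was at 221 FPKM against 125 and 133 FPKM. All 10 markers of the monocyte and macrophage list of 16 with values in WT HFD were highest in this library, but apart from the C1q genes and Csf1r they were 1.07 to 1.31 times the higher of the other WT HFD libraries, as for Mrc1, at 57.8 FPKM against 49.1 and 31.6 FPKM, and Marco, at 16.1 FPKM against 14.1 and 12.8 FPKM. The part of macrophage RNA in the Hgsnat value was not tested. The Hyal1, Hyal2 and Sgsh levels in this library were the lowest of WT HFD.

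Among 828 genes with values in all 12 libraries and a mean of at least 50 reads, the genes most like each enzyme were ranked by Pearson's r of log2(FPKM + 0.1) over 12 libraries. For Hyal2 they were Kank3 (r = 0.995), Lims2 (0.990) and Slc9a3r2 (0.990), and for Hyal1 they were Tbx3 (0.983), Stard8 (0.978) and Hyal2 (0.976). For Sgsh they were Calhm2 (0.952), Adgre5 (0.949) and Phf11b (0.945). For Hgsnat they were Abca9 (0.975), St3gal4 (0.927) and Rab27a (0.875), and Abca9 was at 10.7 FPKM in WT HFD replicate 3 against 1.14 to 3.46 FPKM in the other 11 libraries. The 3 lists of Hyal2, Sgsh and Hgsnat have no gene in common.

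Genes of hyaluronan turnover were described from a list of 24 that includes Hyal1 and Hyal2. In WT on HFD 9 are listed, of which 5 rose and 3 fell, with a median log2 fold change of 1.11 against -0.32 over all listed genes. Without Hyal1 and Hyal2, 7 are listed, of which 3 rose and 3 fell. Beside Hyal1 and Hyal2, Tmem2, a cell surface protein reported to cut hyaluronan, rose by 1.47 (SE 0.38), Layn, a hyaluronan receptor, rose by 1.46 (SE 0.26), and Hapln1, a link protein that ties hyaluronan to proteoglycans, rose by 1.81 (SE 0.44). The third gene that fell was Hyal6, a further hyaluronidase gene, with 0 to 4 reads in WT HFD libraries and 6 to 21 in WT chow libraries. The hyaluronan synthases Has1 and Has3 also fell. Has1 was at 0.762 to 0.946 FPKM in WT chow and 0.123 to 0.265 FPKM in WT HFD and fell by 2.11 (SE 0.31). Has3 was at 0.363 to 0.415 FPKM in WT chow and 0.208 to 0.254 FPKM in WT HFD and fell by 0.74 (SE 0.21). Levels of both synthases and of Hapln1, at 0.018 to 0.125 FPKM in WT, were low.

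In TET2 KO on HFD against WT on HFD, 11 genes of this list are listed, of which 1 rose and 7 fell, with a median of -0.93 against 0.33 over all listed genes. Without Hyal1 and Hyal2, 9 are listed, of which 1 rose and 6 fell. Has1 rose by 1.09 (SE 0.44), while Layn, at -1.21 (SE 0.27), Tmem2, at -0.93 (SE 0.27), and Hapln1, at -1.12 (SE 0.44), fell. Has2, another synthase, was called lower, with 0 reads in all 3 TET2 KO HFD libraries and 1 to 7 reads in those of WT HFD. On chow only Hyal1 and Hyal2 of the list are in the comparison of the genotypes. Tmem2, the surface protein, was at 27.5 to 45.9 FPKM in WT HFD, 8.80 to 21.6 FPKM in WT chow and 15.4 to 25.8 FPKM in TET2 KO HFD.

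Of 14 genes of heparan sulfate degradation, 3 are listed for loss of TET2 on chow, and all 3 rose. Idua, the lysosomal iduronidase, rose by 0.36 (SE 0.13) beside Sgsh and Hgsnat, and was at 7.37 to 7.63 FPKM in TET2 KO chow against 5.38 to 6.48 FPKM in WT chow. For HFD in WT 7 are listed, of which 5 rose and 1 fell, with a median of 0.71 against -0.32 over all listed genes. Without Sgsh and Hgsnat, 5 are listed, of which 3 rose and 1 fell. Hpse, heparanase, which cuts heparan sulfate chains outside and inside the cell, rose by 1.04 (SE 0.24). Sumf2, related to the factor that activates sulfatases, rose by 0.50 (SE 0.13), and Ids, which removes the sulfate of iduronate, rose by 0.29 (SE 0.12). Sulf2, which trims sulfate groups from chains outside the cell, fell by 0.73 (SE 0.29).

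On HFD 5 genes of this list are in the comparison of TET2 KO with WT, and 3 fell, with a median of -0.64 against 0.33 over all listed genes. Without Sgsh and Hgsnat, 3 are listed and 2 fell. The genes that fell beside Sgsh were Sumf2, at -0.70 (SE 0.14), and Ids, at -0.35 (SE 0.14). Of 5 genes of the list with all 12 libraries, 3 had an interaction of diet and genotype past an unadjusted p under 0.05 in edgeR, and they were Sgsh, Hgsnat and Sumf2, at -0.96 (SE 0.25). For Hpse the interaction was -0.33 (SE 0.39) and for Sulf2 it was -0.07 (SE 0.45). Hpse was at 5.16 ± 1.14 FPKM in TET2 KO chow and 8.45 ± 2.23 FPKM in TET2 KO HFD (SD, n = 3 each).

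**Figure D4:**
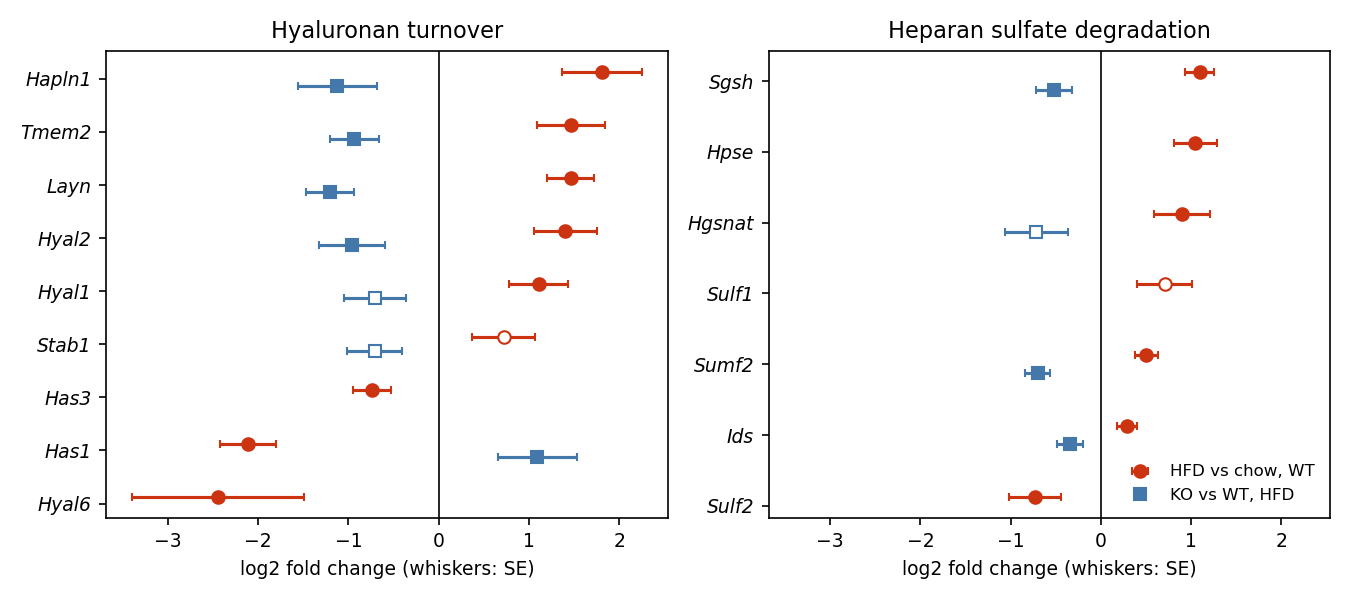
Log2 fold changes (horizontal axes, whiskers SE) of the genes of hyaluronan turnover and of heparan sulfate degradation that are listed for HFD against chow in WT (red circles), with TET2 KO against WT on HFD (blue squares) where it also lists them. Filled symbols have an unadjusted p under 0.05 in edgeR, the comparisons share the WT HFD libraries, and Has1 is the gene with a filled symbol below 0 in red and above 0 in blue.

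Of 27 genes that build heparan sulfate chains, 11 are listed for HFD in WT, and 9 rose and 1 fell. Their median was 0.38 against -0.32 over all listed genes, of which 42.4% rose by the same call. Extl3, which adds an early glucosamine to the chain, rose by 0.83 (SE 0.12), Xylt2, which starts chains by adding xylose, rose by 0.51 (SE 0.15), and Ndst1, which exchanges acetyl for sulfate groups on glucosamine, rose by 0.47 (SE 0.14). Glce, the epimerase that makes iduronate, fell by 0.36 (SE 0.11). On HFD 9 are listed for TET2 KO against WT, and 1 rose and 6 fell. Their median was -0.42 against 0.33 over all listed genes, of which 39.1% fell by the same call. On chow 1 is listed for loss of TET2, Ndst1 at 0.39 (SE 0.17), and it did not pass.

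Of 13 heparan sulfate proteoglycan cores 7 are listed for HFD in WT, and 5 rose and 1 fell. Their median was 0.71 against -0.32 over all listed genes, of which 42.4% rose by the same call. Agrn, agrin of basement membranes, rose by 1.26 (SE 0.26), Hspg2, perlecan, rose by 0.71 (SE 0.20), and Sdc4, a syndecan of the cell surface, fell by 0.42 (SE 0.13). For TET2 KO against WT on HFD 3 cores are listed, of which 1 rose and 2 fell, and for loss of TET2 on chow 1 is listed, Gpc3, a glypican, which fell by 1.63 (SE 0.40). Of 28 general lysosomal genes none is listed for the genotypes on chow. For HFD in WT 7 are listed, of which 2 rose, with Gm2a at 0.46 (SE 0.16) and Ctsb at 0.62 (SE 0.25), and 3 fell, with Cd63 at -0.90 (SE 0.25), Cln3 at -0.65 (SE 0.21) and Neu1 at -0.41 (SE 0.14), a median of -0.53 against -0.32 over all listed genes. Of 7 genes of chondroitin, dermatan and keratan sulfate degradation 1 is listed for HFD in WT, 2 for TET2 KO against WT on HFD and none for it on chow, and none of these passed the test.

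Genes within 50 kb of the hyaluronidase pair did not all move with it. Of 18 annotated neighbours 8 are listed in at least 1 table. For HFD in WT, Naa80, whose exons overlap those of Hyal1, rose by 0.55 (SE 0.22) and Sema3b, a secreted semaphorin, rose by 1.46 (SE 0.26). Tusc2, which lies 1833 bases from Hyal2, fell by 0.46 (SE 0.12), Nprl2 fell by 0.72 (SE 0.11) and Zmynd10 fell by 1.21 (SE 0.23). In TET2 KO on chow Naa80 rose by 0.57 (SE 0.20) and Tusc2 fell by 0.38 (SE 0.14). Near Hgsnat, Pomk, a kinase that phosphorylates a mannose of dystroglycan and lies 3851 bases away, was the only listed gene of 5. Pomk had a log2 fold change of 0.43 (SE 0.18) in TET2 KO on chow, 0.51 (SE 0.21) on HFD in WT, -0.72 (SE 0.23) in TET2 KO on HFD and an interaction of -1.15 (SE 0.32), all past an unadjusted p under 0.05 in edgeR. Pomk was also called lower for HFD in TET2 KO, at -0.65 (SE 0.22), a comparison that does not list Hgsnat. Near Sgsh 1 of 5 annotated neighbours is listed, Rnf213, at 0.53 (SE 0.19) for HFD in WT.

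**Figure D5:**
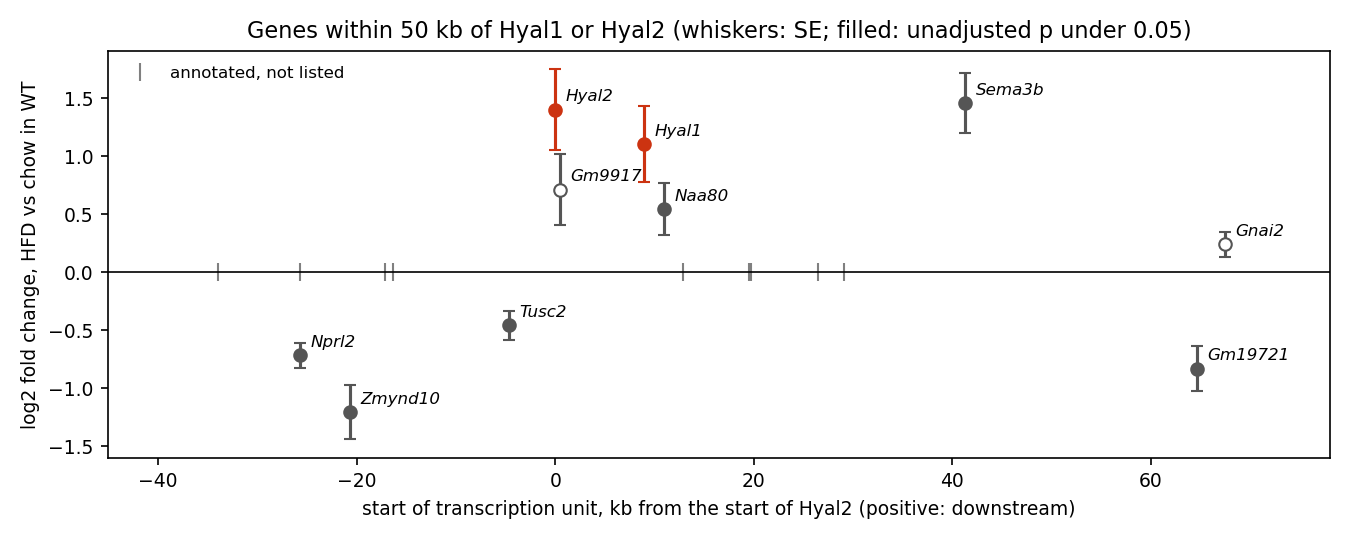
Log2 fold change for HFD against chow in WT (vertical axis, whiskers SE) of the genes within 50 kb of Hyal1 or Hyal2, placed by the distance in kb of their start from that of Hyal2 (horizontal axis); filled symbols have an unadjusted p under 0.05 in edgeR, ticks at 0 mark annotated genes the table does not list, and Cacna2d2, not listed, starts outside the axis. Hyal2, Hyal1, Naa80 and Sema3b lie above 0 and Nprl2, Zmynd10, Tusc2 and Gm19721 below.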

How the data were processed

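RNA of CD31+ lung cells from 12 mice was sequenced by the authors, who aligned reads with HISAT2 to mm10 and counted them with featureCounts. Tool versions, annotation release and strand setting are not given in the sources used here. Per the file headers, the authors deposited 4 tables, 1 for each pairwise comparison, with raw read counts, normalized counts (a signal: the count divided by a DESeq2 size factor for each library) and FPKM per library. Each table lists only genes with an unadjusted DESeq2 p under 0.05. Their fold changes, p-values and group means were not used. Columns were mapped to samples by the labels, and 0 value columns were left unmapped.

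The enzymes and gene lists were chosen with earlier results of these data known. Counts of all listed genes in the 2 groups compared were fitted without a filter by edgeR 4.0.16 under R 4.3.3 (quasi-likelihood), and library sizes were set so that they followed the size factors in the tables. Calls rest on an unadjusted p under 0.05. Benjamini-Hochberg values were taken over the listed genes, which is lenient since unlisted genes were tested too, and over the 55536 genes of GENCODE M21. The interaction was fitted to 975 genes with counts in all 12 libraries, with library totals recovered from FPKM. The p-values set differences against the spread between mice. That spread was estimated over listed genes only, which had been selected for a difference in these same counts. The p-values, SEs and intervals are therefore nominal. Depth (36.7 to 56.8 M reads) limited only genes with few reads.

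Alternatives were DESeq2 1.42.0, limma-trend (limma 3.58.1) on log2(normalized count + 1), library totals, TMM, a mean count of at least 10, the replicate number as a block, stricter thresholds and each library left out. Named were the 4 enzymes, the 3 genes most like each, up to 6 genes per list with the lowest p in the chow KO and WT diet comparisons, and neighbours within 50 kb. Macrophage genes, Naglu and the markers named beside Hgsnat, and which of the listed neighbours to describe, were chosen after their values were seen. The fits were tested on simulated data. Figures were drawn with matplotlib 3.10.9.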

Additional observations from a re-analysis of the deposited data

Results flagged for a closer look

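All 4 enzymes passed the interaction test at an unadjusted p under 0.05 in edgeR, but the way they were chosen bears on this. The HFD effect in TET2 KO minus that in WT was -1.41 on the log2 scale for Hyal1, -1.79 for Hyal2, -1.04 for Sgsh and -1.04 for Hgsnat, in 12 libraries, and 28.6% of the 975 genes fitted had a negative interaction by the same call. The enzymes were chosen from these libraries for higher values in TET2 KO chow and in WT HFD than in WT chow. Each of these choices pushes the interaction below 0, so the test is not independent evidence that the HFD effect differs between genotypes. Hgsnat did not pass after Benjamini-Hochberg adjustment in edgeR (0.0548), nor unadjusted without WT HFD replicate 3, WT chow replicate 1 or TET2 KO HFD replicate 1. No group was large enough for a test of single outlying samples.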

How the results depend on the processing

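For TET2 KO against WT on chow, 3 enzymes were called in edgeR, DESeq2 and limma-trend, against 0 in edgeR with a log2 fold change over 1, and 0 by each tool after adjustment over the listed or all annotated genes. With TMM in edgeR all 4 were called on chow, with Hyal2 at 0.84 (SE 0.35). For HFD in WT 4 were called by each tool, and after adjustment over all annotated genes 0 in edgeR and limma-trend and 3 in DESeq2. A log2 fold change over 1 in edgeR dropped Hgsnat for HFD in WT and kept the other enzymes. For TET2 KO against WT on HFD 2 were called by each tool, against 0 in edgeR with a log2 fold change over 1. After adjustment over the listed genes 0 were called there in edgeR and limma-trend and 2 in DESeq2, and over all annotated genes 0 by each tool. The adjusted DESeq2 and limma-trend counts were added after the data were seen. TMM gave 2 there as well, with Hyal1 (-0.80) in place of Sgsh (-0.56). With the replicate block, 1 enzyme (Sgsh) was called on chow, 4 for HFD in WT, 4 for TET2 KO on HFD and 4 for the interaction. The numbers share no litter or day in the labels, and only 5 of 18 same-numbered pairs correlated over 0.1 (r from -0.32 to 0.52, 945 genes), so they were not taken as pairs.

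With 1 library left out, 0 to 3 enzymes were called on chow, 3 to 4 for HFD in WT, 0 to 2 for TET2 KO on HFD, 0 for HFD in TET2 KO and 3 to 4 for the interaction. Only for HFD in TET2 KO did signs turn, with ranges of -0.81 to 0.083 for Hyal2 (without TET2 KO chow 1), -0.19 to 0.18 for Sgsh (-0.050 without TET2 KO chow 2, -0.19 without TET2 KO HFD 3) and -0.29 to 0.058 for Hgsnat (without TET2 KO HFD 1). The interaction contrast of the log2 library sizes differed by -0.35 between library totals and TMM. With TMM the enzymes' values were -1.82, -2.22, -1.36 and -1.35 in the order Hyal1, Hyal2, Sgsh, Hgsnat. On the log2(FPKM + 1) scale the HFD difference of Sgsh in WT was 0.90. The likeness lists kept their 12 genes with a pseudocount of 1.

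Over all listed genes, edgeR calls on chow went from 994 to 435 with a log2 fold change over 1, 0 after adjustment over the listed genes (DESeq2 370, limma-trend 199) or the annotation (DESeq2 6, limma-trend 0), and 483 to 806 with 1 library left out. For HFD in WT 6712 became 3304 with the fold threshold and 0 after adjustment over the annotation (DESeq2 3309, limma-trend 0). For TET2 KO on HFD 3241 became 1165 with the fold threshold, 1082 after adjustment over the listed genes (DESeq2 3275, limma-trend 1505), 0 over the annotation (DESeq2 219, limma-trend 0), and 1490 to 2849 with 1 library left out. For HFD in TET2 KO 1254 of the 1628 listed genes were called. In the 12-library fit to 975 genes 515 were called for it, and 271 to 527 with 1 library left out. The causes were not tested.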
